A study of Mus musculus with 6 samples.

Results

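Immunoglobulin kappa light chains are built by joining 1 of many variable (V) segments, named Igkv in the mouse, to a joining segment (Igkj) and transcribing the product with the single constant gene Igkc. A B cell and the plasma cells it gives rise to usually carry 1 productive light chain, so the mixture of V segments in an RNA sample reflects which antibody-making cells contributed to it. Igkv segments that lie in the same orientation as Igkc are joined by deletion of the DNA between them, and those in the opposite orientation by inversion. Neutrophils do not rearrange this locus.

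The 72 Igkv segments described here were selected on measured values, as those of the 100 functional-type (IG_V_gene) Igkv rows among 54532 genes whose mean level over all 6 libraries was at least 1 FPKM (fragments normalised to gene length and library size). The libraries came from bone marrow neutrophils of C57BL/6J mice, isolated with anti-Ly-6G beads and challenged in culture with live Candida albicans for 6 h. The 3 WT libraries were compared with 3 libraries from progranulin knockout (PGRN KO) mice, whose Grn gene is disrupted. All 6 cultures were challenged, although the WT titles also carry the word control, and no unchallenged library is compared here. The methods give different suppliers for the WT and PGRN KO mice, so genotype and colony of origin cannot be told apart. The number of mice behind a culture is not stated in what was read here, so p-values measure the spread between these libraries, which may be technical.

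Grn, which encodes progranulin, was measured at 168, 161 and 166 FPKM in WT and at 0.242, 0.206 and 0.747 FPKM in PGRN KO, as the genotype labels give. The neutrophil markers were high in every library: the 10 genes summed to 66648 to 71302 FPKM in WT and 68459 to 78119 FPKM in PGRN KO, with 1 higher (Mmp9), 2 lower (Csf3r and Mmp8) and 7 not passing the test. Depth was 17290604 to 17799798 fragments on genes in WT and 17087344 to 18821091 in PGRN KO. Of these, 1955 to 2192 per WT library and 8562 to 10486 per PGRN KO library lay on Igkv segments.

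All 72 segments lie on chromosome 6 (GRCm38), 29 on the same strand as Igkc and 43 on the opposite strand, between 0.018 and 3.11 Mb from Igkj1. The 3′ end of a segment enters CDR3, the complementarity-determining loop at the V-J join, which contributes to antigen contact. The last 60 bases of the transcript annotated in GENCODE M21 are shown 5′ to 3′ for the segments on which the results turn. They comprise some of the most abundant segments of either genotype, some close relatives that behaved differently, and 2 sets of segments sharing an end. Capitals mark the bases after the conserved cysteine codon, which are the germline part of CDR3.
Igkv8-21: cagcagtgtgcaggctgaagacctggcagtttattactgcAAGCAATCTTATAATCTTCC
Igkv8-27: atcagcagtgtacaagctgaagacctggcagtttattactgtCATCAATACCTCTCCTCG
Igkv8-24: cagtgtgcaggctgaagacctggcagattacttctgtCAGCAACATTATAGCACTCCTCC
Igkv6-25: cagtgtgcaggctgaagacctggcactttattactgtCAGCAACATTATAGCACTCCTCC
Igkv10-96: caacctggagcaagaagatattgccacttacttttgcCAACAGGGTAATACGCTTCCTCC
Igkv1-117: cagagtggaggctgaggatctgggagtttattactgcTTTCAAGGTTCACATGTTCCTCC
Igkv1-110: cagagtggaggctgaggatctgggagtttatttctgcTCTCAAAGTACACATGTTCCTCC
Igkv17-127: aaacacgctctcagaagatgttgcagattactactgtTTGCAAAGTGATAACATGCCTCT
Igkv17-121: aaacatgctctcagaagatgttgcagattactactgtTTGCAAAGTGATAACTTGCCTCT
Igkv4-59: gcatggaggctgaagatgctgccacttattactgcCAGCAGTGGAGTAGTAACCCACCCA
Igkv4-68: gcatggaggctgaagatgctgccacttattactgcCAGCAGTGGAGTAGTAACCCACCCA
Igkv4-72: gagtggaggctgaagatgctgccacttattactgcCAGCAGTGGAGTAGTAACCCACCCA
Igkv4-61: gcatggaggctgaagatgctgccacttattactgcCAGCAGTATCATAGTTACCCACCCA

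The cysteine codon was searched for together with the bases usual before it, and this pattern matched in 71 of the 72 transcripts. Igkv6-20 has a cysteine codon with other bases before it, so it was not matched. In the 71 matched, the germline CDR3 part held 18 to 28 bases, and 49 segments had 23. These 71 ends were of 64 different sequences, and 13 segments shared 1 of 6 ends with another segment. Igkv4-59, Igkv4-68 and Igkv4-72 end alike, and Igkv6-25 and Igkv8-24, of different families, also end alike.

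Kappa transcripts were more abundant in the PGRN KO libraries. Igkc was measured at 418, 419 and 407 FPKM in WT and at 2096, 2205 and 2373 FPKM in PGRN KO, a 5.36-fold difference in means (log2 fold change 2.42 ± 0.054 SE on the log2(FPKM + 1) scale, limma adjusted p = 1.07e-05). The summed FPKM of all Igkv rows was 348, 344 and 306 in WT (333 ± 22.8, SD, n = 3) and 1361, 1275 and 1441 in PGRN KO (1359 ± 82.9, SD, n = 3), which is 4.09 times as much. The lowest PGRN KO library lay far above the highest WT library for both measures (exact two-sided permutation test, p = 0.1, the smallest that 3 against 3 libraries allow). In bulk RNA, a different number of cells of a type and a different amount of RNA per cell cannot be told apart.

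The level of Igkv was also set against that of Igkc in each library. For every 100 FPKM of Igkc, Igkv came to 83.1, 82.0 and 75.3 FPKM in WT, compared with 64.9, 57.8 and 60.7 FPKM in PGRN KO. The 2 sets of libraries did not overlap (exact permutation p = 0.1), and the mean ratio in PGRN KO was 0.763 times that in WT. The separation rested on family 8, described further on: without it the ratios were 66.0, 63.6 and 58.0 in WT and 61.7, 55.4 and 57.7 in PGRN KO, which overlapped (ratio of means 0.932, exact permutation p = 0.2). The 5 Igkj rows were covered by too few fragments to follow: Igkj5 had 1 fragment in the WT libraries together and 13 in PGRN KO and was called higher (log2 fold change 2.25 ± 0.39, limma adjusted p = 0.0112), and the other 4 rows, with 1 to 8 fragments per genotype where any was seen, did not pass the test.

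**Figure D1:**
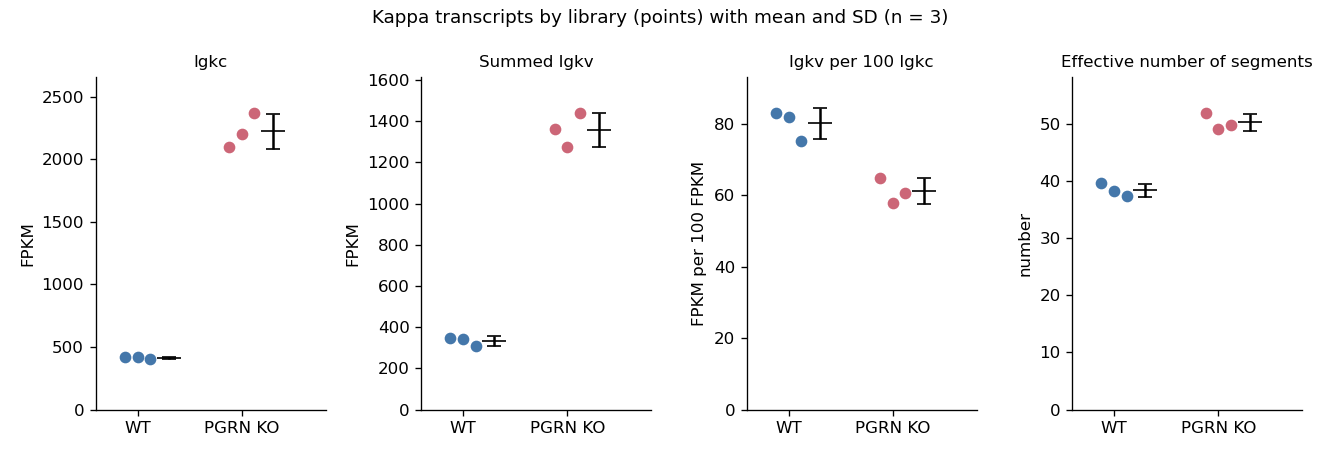
Igkc FPKM, summed Igkv FPKM, summed Igkv per 100 FPKM of Igkc, and effective number of Igkv segments, with 1 point per library and black bars for the mean and SD of 3 libraries per genotype. The PGRN KO points lie above the WT points in every panel but that of Igkv per 100 Igkc, where they lie below.

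Other B lineage transcripts were measured beside the kappa chain. Of the 10 plasma cell markers, 5 were called higher in PGRN KO: Jchain, which links IgM and IgA multimers (22.0 against 72.0 mean FPKM), the survival receptor Tnfrsf17 (0 fragments in WT against 12), Derl3, Pou2af1 and Tnfrsf13b. Prdm1 and Slamf7 were called lower, and Xbp1, Irf4 and Sdc1 did not pass. Markers called in either direction need not be restricted to plasma cells. Summed over the 10 genes, the level was 130 to 136 FPKM in WT and 173 to 185 FPKM in PGRN KO. Jchain made up this difference: the other 9 genes summed to 108 to 113 FPKM in WT and 106 to 110.3 FPKM in PGRN KO, which overlapped. That sum was mostly Xbp1, Slamf7 and Sdc1, with WT means of 47.9, 35.4 and 20.2 FPKM, so it says little about the scarcer genes. Mean levels rose from 0.217 to 1.27 FPKM for Pou2af1, 0.188 to 0.917 FPKM for Derl3 and 3.95 to 6.53 FPKM for Tnfrsf13b. They fell from 35.4 to 22.7 FPKM for Slamf7 and from 2.39 to 1.65 FPKM for Prdm1. The 8 B cell markers were scarce, with summed levels of 2.08 to 3.35 FPKM in WT and 4.39 to 5.59 FPKM in PGRN KO. Cd79a, Cd79b and Blnk, which carry the B cell receptor signal, were called higher, Cd22 did not pass, and 4 were too low to test. Pax5, the defining B cell factor, was at 0 in all libraries.

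Of the 8 pre-B and light chain rearrangement genes, Rag2, Dntt and Vpreb2 were at 0 throughout, Rag1 had 2 fragments, and Vpreb3 rose from 0 to 11 fragments. Il7r, also expressed outside the B lineage, fell from a mean of 10.2 to 5.93 FPKM and made up nearly all of this list's sum of 9.78 to 10.6 FPKM in WT and 5.45 to 7.06 FPKM in PGRN KO. Of the 4 erythroid markers, Hba-a1 and Hbb-bs were called higher and the others were too low to test, with sums of 0.989 to 2.74 FPKM in WT and 4.56 to 5.48 FPKM in PGRN KO. The summed T cell markers stayed under 1 FPKM in every library. The part of any of these cell types in the kappa result was not tested.

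Among all 100 Igkv rows, 57 were called higher in PGRN KO, 3 were called lower, 24 were tested and not called, 6 were above 0 but too low to test and 10 were at 0 in every library. In the whole table of 14807 genes tested, 17.9% were called at a limma adjusted p under 0.05, 7.94% higher and 9.95% lower. The 72 segments at 1 FPKM or more account for 55 of the higher calls, 2 of the lower calls and 15 of those not called, and they held 98.9% of the summed Igkv FPKM in WT and 99.6% in PGRN KO. The rows called outside them were Igkv5-37 and Igkv9-123, higher, and Igkv18-36, lower. The median log2 fold change was 1.71 over the 84 Igkv rows tested and 2.04 over the 72 segments, against 0.0026 over all genes tested. Because the cut uses the mean of both genotypes, 15 of the 72 segments passed it with a WT mean under 1 FPKM and had to differ, so their counts describe the list and lend it no support. Of the 56 segments with at least 1 FPKM in both genotypes, 41 were called higher, 2 lower and 13 not called.

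Just inside the cut lay Igkv4-63, Igkv4-70 and Igkv1-88, with means of 1.17, 1.04 and 1.01 FPKM over the 6 libraries. Just outside lay Igkv4-90, Igkv6-29 and Igkv12-89, with 0.985, 0.630 and 0.610 FPKM.

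Without a model, 59 of the 72 segments had every PGRN KO library above every WT library, 3 had every one below (Igkv8-21, Igkv4-61 and Igkv4-80), and 10 overlapped. Over all genes tested, 37.7% showed no overlap in either direction. The 59 include all 15 segments with a WT mean under 1 FPKM, which had to differ and lend the count no support. The 72 segments differed widely in the size of the change, from a log2 fold change of −2.79 to 4.47. In mean FPKM, 17 segments were at 10-fold or more, 40 between 2-fold and 10-fold, and 9 with less than a 2-fold difference either way. A further 3 were lower by more than that, and 3 had no WT fragment. The segments with no WT fragment, and most of the 17, are among the 15 that had to differ.

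The 2 segments with the highest levels in PGRN KO were also high in WT. Igkv10-96 (chr6:68631963-68632442, opposite strand) was measured at 20.0, 27.2 and 16.4 FPKM in WT and at 78.7, 91.1 and 96.8 FPKM in PGRN KO, with a log2 fold change of 2.04 ± 0.17 (SE; limma adjusted p = 0.000912). It had rank 3 among Igkv rows in WT and rank 1 in PGRN KO, and its share of the library's Igkv sum was nearly the same, 6.35% ± 1.38 and 6.55% ± 0.698 (SD, n = 3). Igkv1-117 (chr6:68121046-68121827, same strand as Igkc) was second in both genotypes, at 28.0, 17.4 and 24.9 FPKM in WT and 76.7, 74.4 and 92.0 FPKM in PGRN KO (log2 fold change 1.77 ± 0.17, limma adjusted p = 0.00148). Igkv15-103 stood ninth in both, with 9.52 ± 1.86 FPKM in WT and 39.2 ± 2.60 FPKM in PGRN KO. Mean levels of these 3 segments were 4.19, 3.46 and 4.12 times as high in PGRN KO, close to the 4.09 times of the Igkv sum.

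Other segments were scarce in WT and abundant in PGRN KO. Igkv17-121 (chr6:68036812-68037318), with the largest log2 fold change of the 72, was measured at 0.162, 1.16 and 1.45 FPKM in WT and at 44.9, 30.9 and 44.8 FPKM in PGRN KO (log2 fold change 4.47 ± 0.29, limma adjusted p = 0.000368). The WT values rest on 17 fragments in all, against 815 in PGRN KO. Igkv3-7 had 9 fragments in WT, with 0.656, 0 and 0.813 FPKM, and 533 in PGRN KO, with 32.1, 25.9 and 22.4 FPKM (log2 fold change 4.25 ± 0.24, limma adjusted p = 0.000217). Igkv4-59 was measured at 0.480, 2.12 and 5.87 FPKM in WT, a wide spread within the genotype, and at 56.0, 52.1 and 45.6 FPKM in PGRN KO (log2 fold change 4.04 ± 0.50, limma adjusted p = 0.00344). None of these segments overlapped between genotypes, and Igkv17-121 went from rank 59 to rank 7. With WT means of 0.922 and 0.490 FPKM, Igkv17-121 and Igkv3-7 passed the cut only through PGRN KO. Both had to differ, so their p-values lend no support.

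Igkv14-111, Igkv12-44, Igkv6-25 and Igkv1-135 were further segments of the 10 most abundant in PGRN KO that were not so in WT. Igkv14-111 rose from 4.64, 7.01 and 3.49 FPKM to 59.1, 48.9 and 62.3 FPKM. Igkv12-44 had close replicates, at 3.38, 3.44 and 2.77 FPKM in WT and 32.6, 34.9 and 37.2 FPKM in PGRN KO (log2 fold change 3.10 ± 0.083, limma adjusted p = 1.2e-05). Mean levels of Igkv6-25 and Igkv1-135 were 9.39 and 9.13 times as high in PGRN KO. Only 4 segments were among the 10 most abundant in both genotypes.

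The low end of WT holds the ratios that are hardest to size. Igkv8-18, Igkv1-133 and Igkv4-63 had no fragment in any WT library, and set against a floor of 3 fragments over the WT libraries they were at least 28.1-fold, 14.9-fold and 13.9-fold higher in PGRN KO. Igkv1-99 had 1 fragment in WT and 217 in PGRN KO, a ratio of 196 with a counting interval of 35.2 to 7856. Igkv4-55 had 1 WT fragment as well, with a ratio of 127 and an interval of 22.7 to 5117, and Igkv4-70 had 2, with a ratio of 19.3 and an interval of 4.86 to 160. These intervals cover counting error only. Igkv1-122 and Igkv4-72, with 11 and 10 WT fragments, had log2 fold changes of 3.64 ± 0.41 and 3.40 ± 0.32. All segments named in this paragraph had a WT mean under 1 FPKM, so they too had to differ.

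**Figure D2:**
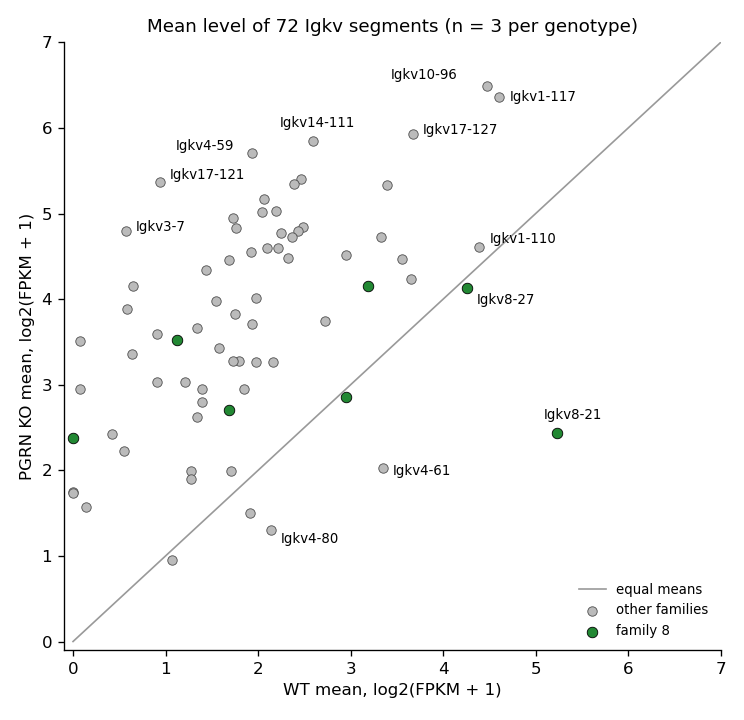
Mean log2(FPKM + 1) of each of the 72 segments in WT (horizontal axis) and PGRN KO (vertical axis), 3 libraries per genotype, with family 8 in green and the line of equal means in grey. Most points lie above the line, Igkv8-21 lies farthest below it, and Igkv1-110 and Igkv8-27 lie close to it.

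Igkv8-21 ran in the opposite direction. This segment (chr6:70314895-70315472, opposite strand to Igkc) was the most abundant in each WT library, at 34.2, 38.8 and 36.4 FPKM, and was measured at 4.55, 4.76 and 4.0 FPKM in PGRN KO, where it ranked 59th. Its log2 fold change was −2.79 ± 0.074 (limma adjusted p = 1.2e-05), and it rested on 707 and 94 fragments. Within the Igkv sum its share was 9.84, 11.3 and 11.9% in WT and 0.328% on average in PGRN KO. The nearest relative, Igkv8-19, is 90.7% identical over the last 280 bases and was measured at 2.23 ± 1.29 FPKM in WT and 5.53 ± 3.74 FPKM in PGRN KO, which did not pass the test (log2 fold change 0.97, limma adjusted p = 0.199).

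Igkv4-80 was the other segment called lower, at 2.88, 4.13 and 3.19 FPKM in WT and 1.13, 1.11 and 2.19 FPKM in PGRN KO (log2 fold change −0.85 ± 0.19, limma adjusted p = 0.0248), a call that was lost in 5 of the alternative fits. Igkv4-61 was measured at 14.3, 6.12 and 7.03 FPKM in WT and 4.69, 1.73 and 2.80 FPKM in PGRN KO, and although its libraries did not overlap it missed the threshold (log2 fold change −1.30 ± 0.36, limma adjusted p = 0.0507). Igkv4-86, Igkv8-24 and Igkv1-88 had log2 fold changes of −0.41, −0.11 and −0.12, and their libraries overlapped.

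Several segments that were prominent in WT showed no called change while the Igkv sum was 4.09 times as high. Igkv1-110 was measured at 14.7, 23.3 and 22.0 FPKM in WT and 20.5, 23.8 and 26.1 FPKM in PGRN KO (log2 fold change 0.24 ± 0.17, limma adjusted p = 0.402). Its share went from 6.06% to 1.73%. Igkv8-27 was measured at 19.8, 17.2 and 17.4 FPKM in WT and 19.3, 11.6 and 18.8 FPKM in PGRN KO (log2 fold change −0.15 ± 0.18, limma adjusted p = 0.625), and its share went from 5.45% to 1.21%. Igkv9-124 was higher in each PGRN KO library, with means of 11.6 and 17.9 FPKM, without passing the test (log2 fold change 0.61 ± 0.20, limma adjusted p = 0.0784).

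Shares within the library show this redistribution for all 72 segments. The share was higher in every PGRN KO library than in every WT library for 28 segments, lower for 15, and overlapping for 29, so that 59.7% did not overlap. The 28 include segments with a WT mean under 1 FPKM, such as Igkv17-121 and Igkv3-7. Such segments passed the cut only through PGRN KO and lend the count no support. For heavy chain V segments (Ighv) at the same cut, 56.6% did not overlap, so the kappa segments lay near the background of the heavy chain in this respect. The shares in a library sum to a whole, and a fall of the leading segments raises the others.

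**Figure D3:**
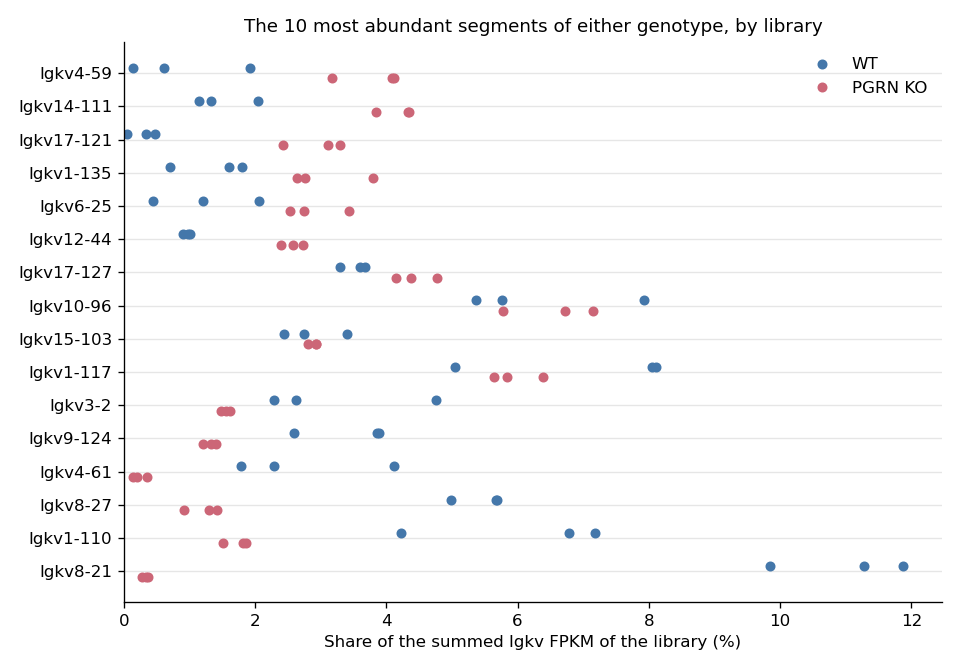
Share of the library's summed Igkv FPKM (percent, horizontal axis) of the segments that were among the 10 most abundant in either genotype, with 1 point per library, WT in blue and PGRN KO in red. Igkv8-21 falls from between 9.84 and 11.9% to under 1%, and Igkv10-96 overlaps between genotypes.

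The mixture of segments was more even in PGRN KO. The effective number of segments (the exponential of the Shannon entropy of the shares, which equals the number of rows if all were equally abundant) was 39.7, 38.2 and 37.4 in WT and 52.0, 49.2 and 49.8 in PGRN KO. The inverse Simpson index, which weighs abundant segments more, was 27.2, 24.4 and 23.6 against 40.5, 36.9 and 38.0. The 5 most abundant segments of each library held 33.6, 36.0 and 38.2% of the Igkv sum in WT and 24.3, 25.7 and 25.0% in PGRN KO. No library of one genotype reached the range of the other in any of these measures (exact permutation p = 0.1 for each). With Igkv8-21 left out, the mean effective number was 40.9 in WT and 49.9 in PGRN KO. In the heavy chain, the effective number of Ighv segments also differed, at 42.0 ± 1.88 and 51.8 ± 0.919 (SD, n = 3).

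More segments were seen in PGRN KO, where the depth on this locus was also greater. A value above 0 was found for 69, 72 and 71 rows in WT and for 83, 83 and 81 in PGRN KO. Drawn down to the 1955 fragments of the shallowest library, the expected number was 68.0, 71.7 and 71 in WT and 76.8, 77.4 and 75.3 in PGRN KO. The difference of 11.7 rows was reduced to 6.29 at equal depth, and the libraries still did not overlap.

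By correlation, the composition was also more alike among the PGRN KO libraries than among those of WT. The PGRN KO libraries held more Igkv fragments, 8562 to 10486 against 1955 to 2192. Across the 100 rows, Pearson's r of log2(FPKM + 1) was 0.873 to 0.889 within WT, 0.969 to 0.973 within PGRN KO and 0.661 to 0.703 between genotypes, as a description in which the rows share library and depth. The part of the mixture that would have to be reassigned to turn 1 library into another was 18.7 to 20.3% within WT, 9.09 to 9.97% within PGRN KO and 37.1 to 41.6% between genotypes. Chi-square per degree of freedom of the fragments was 4.36 to 5.04 within WT and 4.38 to 4.77 within PGRN KO, so no pair of libraries was close enough to be 1 library deposited again. Between genotypes it was 29.8 to 33.5. The median coefficient of variation per segment was 44.8% in WT and 19.7% in PGRN KO, with a median of 48.5 fragments per segment over the WT libraries and 287.5 over those of PGRN KO.

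The Igkv segments fall into 20 families by the number after Igkv, 16 of which hold at least 1 of the 72. Summing over a family lessens the effect of reads that could be placed on any of several near-identical members. The summed FPKM was higher in every PGRN KO library for 15 of the 16 families, by 2.78-fold in family 9 to 7.92-fold in family 17. Family 17 consists of Igkv17-127 and Igkv17-121, and families 16, 13 and 3 followed at 7.64-fold, 7.63-fold and 6.79-fold. In family 3, all 7 segments were called higher. Of these, Igkv3-7 and Igkv3-5 had WT means of 0.490 and 0.879 FPKM and had to differ.

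Family 8 was the exception. Its sum was 71.8, 77.0 and 70.4 FPKM in WT and 68.9, 54.1 and 71.6 FPKM in PGRN KO, which overlapped (ratio of means 0.887, exact permutation p = 0.2), while the other families together went from 260 ± 20.9 to 1294 ± 74.2 FPKM, or 4.99-fold. The 7 segments of family 8 did not move alike. Igkv8-28, Igkv8-30 and Igkv8-18 were called higher, Igkv8-21 lower, and Igkv8-27, Igkv8-24 and Igkv8-19 not. Igkv8-18 had no WT fragment and had to differ. The family held the largest share of any in WT, 22.0% ± 1.21 (SD, n = 3). In PGRN KO it held 4.76% ± 0.449 (SD, n = 3).

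The share of 6 families was higher without overlap in PGRN KO: family 17 went from 3.81 to 7.38%, family 3 from 6.25 to 10.4%, family 6 from 8.92 to 11.8%, family 12 from 4.21 to 6.08%, family 14 from 3.54 to 5.52% and family 13 from 1.72 to 3.30%. Besides family 8, only family 9 among the 16 had a lower share without overlap, from 4.41 to 3.02%. Family 4, the largest with 17 members, overlapped at 12.7 and 14.2%, and family 1, with 7 members, at 15.0 and 13.0%. Each of the exact permutation tests on non-overlapping families gave p = 0.1, or 0.222 after Benjamini-Hochberg adjustment over the 20 families, so none passed. When family 8 was left out of the sum, the shares of families 3, 13, 14 and 17 were still higher and that of family 9 still lower without overlap. Families 6 and 12 overlapped, and family 1 became lower, from 19.3 to 13.6%.

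**Figure D4:**
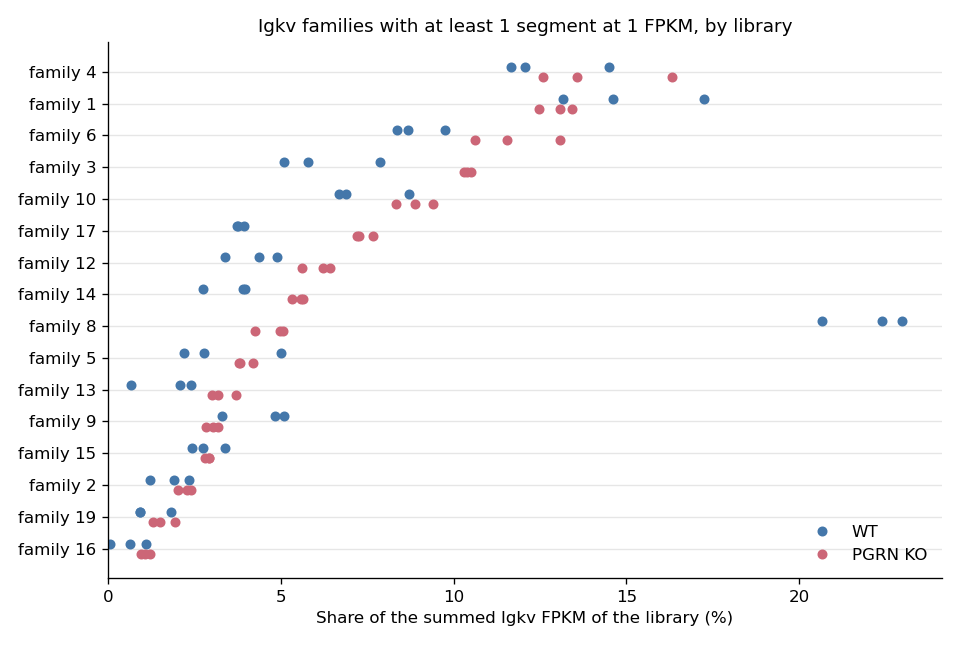
Share of the library's summed Igkv FPKM (percent, horizontal axis) for the 16 families with a segment at 1 FPKM or more, with 1 point per library, WT in blue and PGRN KO in red, ordered by the PGRN KO mean. Family 8 drops from 22.0 to 4.76% on average, the largest difference shown.

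Within families, some close relatives differed in the size or direction of the change. Igkv17-127 and Igkv17-121, shown above, are 97.9% identical over their last 280 bases. Igkv17-127 was measured at 12.8, 12.4 and 10.1 FPKM in WT and at 59.6, 60.9 and 59.8 FPKM in PGRN KO (log2 fold change 2.27 ± 0.085, limma adjusted p = 4.71e-05), whereas Igkv17-121 had a log2 fold change of 4.47. Igkv1-117 and Igkv1-110 are 96.8% identical, and the first rose 3.46-fold while the second was 1.17 times as high. Igkv4-68 and Igkv4-61 are 96.4% identical, with log2 fold changes of 2.55 and −1.30. These pairs were chosen after their values were seen, and the differences within them were not tested.

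Over the 21 pairs of the same family with at least 95% identity, the median absolute difference in log2 fold change was 0.88, from 0.13 to 4.13. Over the 233 pairs of the same family with less identity it was 1.29, and over all 2556 pairs of the 72 segments it was 1.15. Pairs share segments, and these medians were not tested against each other. In 5 of the 6 sets of segments with the same germline CDR3 end, every segment was called higher, as were 55 of all 72 segments. Most of these 5 sets held a segment with a WT mean under 1 FPKM, which had to differ. The count therefore says nothing about sharing an end. Igkv4-59, Igkv4-68 and Igkv4-72 form 1 of the 5 sets, with log2 fold changes of 4.04, 2.55 and 3.40. The exception among the 6 sets was that of Igkv6-25 and Igkv8-24, from different families, with log2 fold changes of 3.11 and −0.11.

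Identity also limits how surely fragments are placed. The nearest Igkv row to a segment was 73.9 to 98.9% identical, with a median of 95.2%, and 5 segments had a relative at 98% or more. A stretch of 100 bases was shared with another Igkv transcript in 35 segments, and Igkv6-20 shared 55.8% of its stretches. Values of such segments are uncertain to the extent that the counting split or dropped shared reads, and mutated antibody sequences can be misplaced in any of them. Among the 37 segments with no shared stretch, 26 were called higher and 1 lower, which was Igkv8-21, with a median log2 fold change of 1.60. The 26 include segments that passed the cut only through PGRN KO, such as Igkv1-99.

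Along the locus, segments on either strand and at every distance were called higher. Of the 29 segments on the strand of Igkc, 26 were called higher and none lower, and of the 43 on the opposite strand, 29 were called higher, 2 lower and 12 not. Both counts include segments with a WT mean under 1 FPKM, such as Igkv17-121 and Igkv4-72, which had to differ. The counts therefore lend no support to a difference by strand, and the medians by distance below include such segments too. Over all 100 rows, the same strand held 36.2, 38.9 and 38.0% of the Igkv sum in WT and 50.8, 51.4 and 52.1% in PGRN KO (exact permutation p = 0.1). Of the 7 family 8 segments, 6 lie on the opposite strand. With family 8 left out of the sum, the same strand held 45.7, 50.1 and 49.3% in WT and 53.2, 53.4 and 54.4% in PGRN KO, which still did not overlap. In 3 groups of 24 segments by distance from Igkj1, the median log2 fold change was 2.11 in the nearest, 1.98 in the middle and 1.99 in the farthest group. The share of the nearest group went from 38.1 to 28.6%, and that of the farthest from 41.8 to 46.4%. All 7 family 8 segments lie in the nearest group, and the share of family 8 went from 22.0 to 4.76%. The shares by distance were not computed without family 8, so they do not show a shift along the locus.

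**Figure D5:**
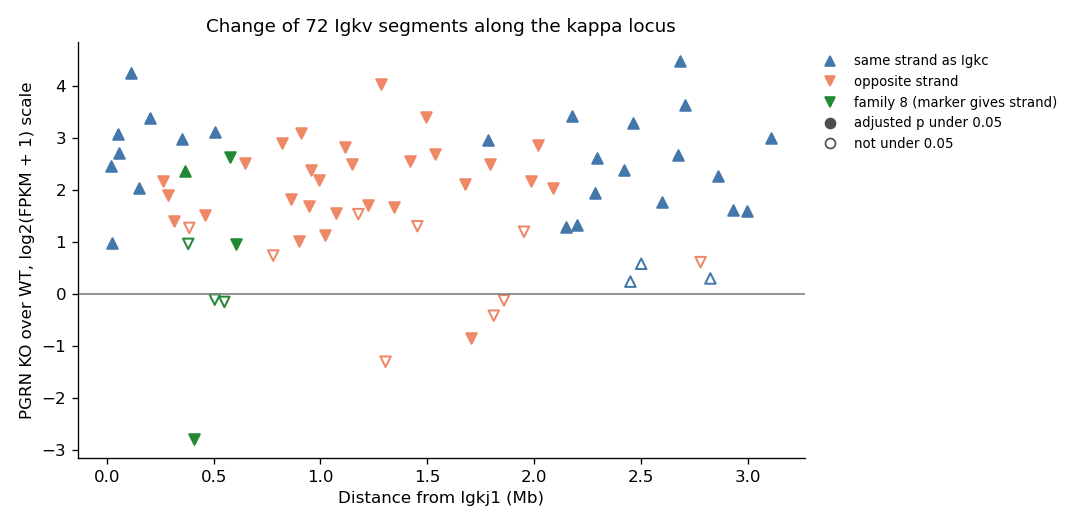
Log2 fold change of PGRN KO over WT (vertical axis, log2(FPKM + 1) scale) of the 72 segments against distance from Igkj1 in Mb, with upward triangles for the strand of Igkc, downward triangles for the opposite strand, family 8 in green, and filled symbols for a limma adjusted p under 0.05. Igkv8-21 is the lowest point, at −2.79, and no segment on the strand of Igkc lies below 0.

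The lambda light chain, the alternative to kappa, overlapped between genotypes as a sum. The summed level of the lambda constant genes was 45.9, 38.1 and 30.0 FPKM in WT and 37.4, 38.8 and 47.1 FPKM in PGRN KO (exact permutation p = 0.5). For every 100 FPKM of Igkc this was 9.14 ± 1.81 FPKM (SD, n = 3) in WT, against 1.84 ± 0.124 FPKM in PGRN KO, with no overlap (exact permutation p = 0.1). Among the lambda V segments the direction again differed: Iglv2 fell from a mean of 23.1 to 2.61 FPKM (log2 fold change −2.77 ± 0.25, limma adjusted p = 0.00118), Iglv3 rose from 1.70 to 15.1 FPKM (log2 fold change 2.60 ± 0.25, limma adjusted p = 0.00146), and Iglv1, with means of 27.8 and 43.2 FPKM, did not pass (limma adjusted p = 0.0675).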

How the data were processed

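RNA sequencing libraries of 3 WT and 3 PGRN KO neutrophil cultures were grouped by the genotype in their labels. The authors deposited FPKM values per gene and library. Per the labels, the submitters' processing notes name CASAVA, HISAT2 2.0.5, featureCounts 1.5.0-p3, DESeq2 1.20.0 and the builds mm10 and GRCm38, whereas the methods name HISAT and HTSeq, so the counter is uncertain. All 100 Igkv rows have the same position in GENCODE M21, as do 53499 of 54409 shared identifiers.

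FPKM multiplied by gene length gave whole fragments within 0.05 in every value, from which depth was taken. Counting error only is covered by intervals and floors. Genotypes were compared with limma 3.58.1 (R 4.3.3, lmFit and eBayes with trend) on log2(FPKM + 1) for 14807 genes with a mean of at least 0.1 FPKM, two-sided with Benjamini-Hochberg adjustment over all of them, so a fold change understates that of low genes. Single values per library were compared by exact permutation (Python 3.11.15, numpy 2.4.6, pandas 2.3.3, scipy 1.17.1). The fit was tested on simulated data. Segments and marker lists were chosen with earlier results of these data known. The segments named were the 12 highest in mean FPKM, the 6 most positive and 6 most negative in log2 fold change, the most abundant of each family and the 3 on either side of the cut, which came to 30 of the 72; others are named as family or pair members and were chosen after their values were seen. Alternatives were other pseudocounts, filters, scalings, limma voom on fragments, fragments in place of FPKM, other sets of Igkv rows and each library left out. The value of 1 B cell marker is not reported here.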

Additional observations from a re-analysis of the deposited data

How the results depend on the processing

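No paired analysis was possible because the replicate numbers are not shared between the genotypes. Of the 57 calls among the 72 segments, 50 to 57 were kept in each alternative fit, and none changed sign. Leaving out 1 library at a time gave 50 to 53 segments called higher, 1 to 2 called lower and a median log2 fold change of 1.90 to 2.05. The count called lower was 1, with Igkv8-21 remaining, when all genes above 0 were tested, when only segments at 5 FPKM or more were taken, and without PGRN KO replicate 5, WT replicate 2 or WT replicate 3. The median was 2.62 with limma voom on fragments and 2.61 with a pseudocount of 0.1. Igkv4-80 lost its call when all genes above 0 were tested and without PGRN KO replicate 4 or 5 or WT replicate 2 or 3, and Igkv4-61 gained one in 5 fits.

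The share of family 15, 0.028 percentage points higher in PGRN KO, became −0.182 without WT replicate 1 and −0.0292 without WT replicate 3. Log2 fold changes that turned were those of genes not called: Igkv1-88 (0.30 without PGRN KO replicate 5, 0.19 without WT replicate 2, lowest −0.49), Igkv8-27 (0.072 without PGRN KO replicate 5, lowest −0.27), Igkv12-89 (0.00778 with voom, 0.024 with plain totals, 0.018 with a pseudocount of 0.1, 0.099 without PGRN KO replicate 4, 0.22 without WT replicate 3, lowest −0.14), S100a8 (0.028 with plain totals), Cxcr2 (0.055 with plain totals, 0.011 without PGRN KO replicate 4), Sdc1 (−0.00840 without WT replicate 3, highest 0.043), Trac (−0.035 without PGRN KO replicate 6, highest 0.20) and Igkj1 (−0.12 without WT replicate 1, highest 1.43). The cause was not tested.

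Leaving out Igkv8-21, or family 8, was chosen after seeing the data. Low WT segments rest on few fragments, which limits the size of their ratios.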
